A study of Tachycineta bicolor and Sialia sialis and Hirundo rustica with 121 samples.

Results

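HTR1A encodes the serotonin 1A receptor. It is 1 of 10672 genes counted by sequencing of RNA from part of the forebrain, the ventromedial telencephalon, in 60 male and 61 female adult songbirds of 10 species. The gene was chosen by its CPM in each species and sex, for a higher level in males and for differences between the species of a family, so those differences are described below without a test. Each of 5 families gave an obligate cavity nester, which nests only in cavities, and a species of another nesting strategy. Hirundinidae gave the obligate Tree Swallow (6 males, 7 females) and the open cup nesting Barn Swallow. Parulidae gave the obligate Prothonotary Warbler and the open cup nesting Yellow Warbler, and Passeridae the obligate Eurasian Tree Sparrow and the facultative House Sparrow. Troglodytidae gave the obligate House Wren with the facultative Carolina Wren, and Turdidae the obligate Eastern Bluebird with the open cup nesting American Robin. Every species other than Tree Swallow had 6 males and 6 females. All birds were adults of the Midwestern United States, taken before egg laying while they set up territories and built nests. The labels name no allele, transgene or drug for any group.

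The serotonin 1A receptor is coupled to inhibitory G proteins. When serotonin binds, it lowers adenylyl cyclase activity and opens inwardly rectifying potassium channels, which quiets the cell. In mammals it sits both on the serotonin neurons of the raphe, as an autoreceptor, and on target neurons of the forebrain, and in birds and mammals it has been studied for its part in aggression and anxiety. By general knowledge HTR1A lies on the Z chromosome of birds, of which males carry a pair and females a single copy. No annotation was at hand to look this up.

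Total counts per bird ran from 4526413 to 7549296. The birds together held 3218 HTR1A reads in all, between 0 and 60 per bird, so counting error alone gave a coefficient of variation of 14.8% to 32.3% depending on species and sex. Levels are given as CPM, the counts brought to a common library size. In whole tissue, fewer cells of a type and less RNA per cell cannot be told apart, and a level set across species also carries any difference in how well the reads of each species matched the reference. The libraries labelled Carolina Wren female 1 and male 3 went against their labels in CHD1W, a gene of the female-limited W chromosome. The first had 8.37 CPM, against 54.7 to 67.9 CPM in the other 5 females, and the second had 67.7 CPM, against 7.63 to 15.6 CPM in the other 5 males. Both entered under their labels. Marker sums of the dissected region were present in every bird, with 1222 to 3987 CPM over 18 genes of inhibitory and striatal neurons and 125 to 480 CPM over 6 genes of the septum and preoptic area. Markers of other regions were present in every bird as well. Excitatory pallial neurons had 262 to 1155 CPM over 10 genes, and the hypothalamus 8.00 to 187 CPM over 4 genes. The sums therefore do not show how closely the dissection kept to its region. The sum of 3 choroid plexus and ependyma genes ran from 2.57 to 10952 CPM between birds.

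HTR1A was detected in every species, and males stood above females on average in each of the 10. Over all birds it averaged 5.25 ± 2.27 CPM in 60 males and 3.85 ± 1.62 CPM in 61 females (SD), with medians of 5.41 and 3.75 CPM. The sexes overlapped widely, with males between 0 and 10.3 CPM and females between 1.06 and 9.61 CPM.

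In Hirundinidae, the lowest, median and highest HTR1A levels were 4.94, 6.99 and 10.3 CPM in the 6 Tree Swallow males and 3.16, 4.82 and 9.61 CPM in the 7 females. Barn Swallow males had 3.27, 5.93 and 8.95 CPM by the same 3 measures, and the females 1.12, 4.15 and 5.82 CPM. The sexes overlapped in both swallows, and 4 of 6 Barn Swallow males were above every female of their species.

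Among the warblers, HTR1A had a lowest, median and highest level of 2.49, 4.54 and 5.23 CPM in Prothonotary Warbler males and of 2.62, 4.18 and 4.67 CPM in the females. Yellow Warbler males had 4.36, 5.62 and 8.78 CPM and the females 2.54, 4.85 and 6.42 CPM. The sexes of the Prothonotary Warbler had the lowest ratio of means of the 10 species, at 4.33 ± 1.02 CPM in males and 3.83 ± 0.904 CPM in females (SD, n = 6 each).

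In the sparrows, HTR1A ran from 1.95 CPM through a median of 4.52 to 6.63 CPM in Eurasian Tree Sparrow males and from 2.37 through 2.93 to 4.16 CPM in the females. House Sparrow males held a narrow range, with a lowest level of 5.60, a median of 6.30 and a highest of 6.91 CPM, while the females had 2.65, 3.52 and 4.37 CPM. The coefficient of variation of the House Sparrow males was 8.63%, less than the 17.3% from counting error alone. Their narrow range therefore cannot be taken as a trait of the species. The House Sparrow was the only species of the 10 in which the sexes did not overlap, which rests on 6 birds of each sex at this counting error.

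House Wren males had 4.66, 7.48 and 8.55 CPM as lowest, median and highest HTR1A level, and House Wren females 4.52, 5.95 and 6.80 CPM. Carolina Wren males had 2.88, 3.77 and 5.99 CPM and the females 2.44, 2.79 and 3.96 CPM. House Wrens were the higher species in both sexes, and 8 of 12 House Wrens were above every Carolina Wren.

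In the thrushes, HTR1A was lowest in the Eastern Bluebird, with 0, 1.98 and 3.93 CPM as lowest, median and highest level in males and 1.06, 1.48 and 2.31 CPM in females. American Robin males had 0, 5.33 and 9.44 CPM, the widest spread of the 20 groups, and the females 1.89, 3.43 and 4.19 CPM. One male of each thrush had no HTR1A read, while 4 of 6 robin males were above every robin female.

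**Figure D1:**
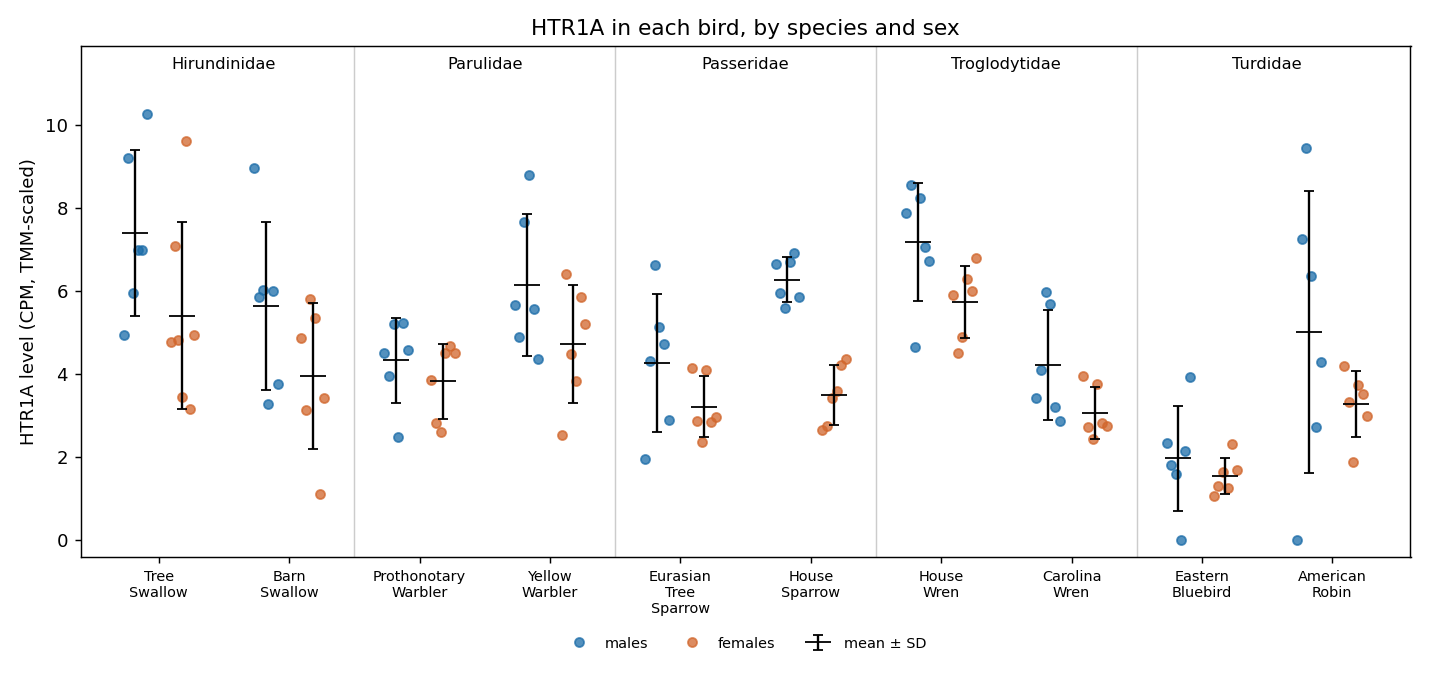
HTR1A level of each bird in CPM (vertical axis), by species, with males left of females and each obligate nester left of its partner; bars are the mean ± SD of each sex. House Sparrow is the only species without overlap of the sexes, and 1 Eastern Bluebird male and 1 American Robin male lie at 0.

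Ordered by the mean over both sexes, HTR1A was highest in House Wren at 6.46 ± 1.35 CPM and Tree Swallow at 6.32 ± 2.29 CPM, and lowest in Eastern Bluebird at 1.76 ± 0.934 CPM (SD, n = 12, 13 and 12). Between them came Yellow Warbler (5.44), House Sparrow (4.89), Barn Swallow (4.80), American Robin (4.15), Prothonotary Warbler (4.08), Eurasian Tree Sparrow (3.75) and Carolina Wren (3.65 CPM). Each species overlapped its neighbour in this order. Only the step between Carolina Wren and Eastern Bluebird, 1.89 CPM, was larger than the larger SD of the 2 neighbours. By sex and species the order ran from Tree Swallow males at 7.39 CPM to Eastern Bluebird females at 1.55 CPM, and no neighbouring groups differed by more than the larger of their SDs.

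Most of the variance of HTR1A lay among birds within a species and sex. That part took 52.3% of the sum of squares of log2 CPM, against a median of 26.0% over 10648 genes. Family took 24.7% (median gene 40.5%), species within family 16.2% (21.3%), sex 4.78% (0.126%) and sex by species 2.08% (2.38%). The gene was chosen for its sex and species differences, so how these shares compare with the median gene is no result. Without the 2 birds that had no HTR1A read, an alternative chosen after seeing the data, sex took 13.3%, species within family 26.8% and birds of the same group 37.5%. The biological coefficient of variation of HTR1A was 29.8%, and 78.5% of the 1259 genes averaging 2.27 to 9.09 CPM, a window around its own mean, had a higher one (median 37.1%).

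The pair of birds with no HTR1A read were Eastern Bluebird male 12 and American Robin male 2, with total counts of 5290371 and 5820228. A count of 0 allowed up to 0.515 and 0.513 CPM in these libraries (3 counts, counting error only). Both libraries also lacked reads for other genes. Eastern Bluebird male 12 was at 0 for 360 of 9700 genes that averaged at least 5 CPM in its species, and American Robin male 2 for 44 of 9708, while the other 119 birds were at 0 for 0 to 173 such genes (median 1). HTR1A averaged less than that, at 1.76 CPM in bluebirds and 4.15 CPM in robins. Of genes averaging 2.27 to 9.09 CPM in the species, 34.2% were at 0 in Eastern Bluebird male 12 and 10.4% in American Robin male 2. In the other birds this share was 0% to 21.8%. Their median correlation with birds of their species and sex was 0.861 and 0.916, against 0.883 to 0.983 in the others. American Robin male 2 had the lowest choroid plexus and ependyma sum of its species, 2.57 CPM against 40.6 to 7540 CPM. It also had the lowest endothelial and mural sum (266 against 362 to 674 CPM over 9 genes) and the lowest septum and preoptic sum (125 against 151 to 253 CPM). Its inhibitory and striatal sum was the highest of its species (2559 against 1222 to 2217 CPM). It had no TPH1 read, and neither had American Robin male 7, a bird with 60 HTR1A reads. The marker sums of Eastern Bluebird male 12 all lay within the range of the other birds of its species. The part of these library properties in the 2 counts of 0 was not tested.

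Over all birds the fitted HTR1A difference of males over females was log2 0.45 ± 0.10 SE, a 1.37-fold higher level, with species as a covariate. Across all genes 5.21% passed the threshold for sex (edgeR, adjusted p below 0.05), and 3.59% had a larger sex difference in size than HTR1A. The gene was chosen for this difference, so that rank is no test. Within species, HTR1A was higher in males by log2 0.83 ± 0.20 in House Sparrow, 0.60 ± 0.58 in American Robin, 0.49 ± 0.40 in Barn Swallow, 0.46 ± 0.28 in Eurasian Tree Sparrow, 0.45 ± 0.27 in Tree Swallow and 0.45 ± 0.24 in Carolina Wren (SE). The smaller values were 0.37 ± 0.24 in Yellow Warbler, 0.36 ± 0.18 in House Wren, 0.35 ± 0.62 in Eastern Bluebird and 0.17 ± 0.22 in Prothonotary Warbler. The direction was the same in 10 of 10 species, which the choice of the gene fixed. In 9 of them the sexes overlapped.

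Several of these HTR1A values leaned on single libraries. Without its male at 0 the Eastern Bluebird difference was log2 0.61 ± 0.38 SE, and without its male at 0 the American Robin difference was 0.86 ± 0.34. In Barn Swallow the difference was 0.82 ± 0.38 without females 3 and 4, which were at 0 for 173 and 119 genes. In Carolina Wren it was 0.59 ± 0.26 without the libraries labelled female 1 and male 3. Over all birds it was 0.49 ± 0.08 without the 2 birds at 0. Each of these removals raised the difference, and leaving out the 2 birds at 0 was chosen after seeing the data. With the bird number fitted as a replicate block the values were lower instead. They were 0.20 ± 1.27 in American Robin, 0.19 ± 1.36 in Eastern Bluebird, 0.28 ± 0.61 in Barn Swallow and 0.35 ± 0.29 in Carolina Wren. Over all birds the block gave 0.35 ± 0.16.

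The HTR1A sex difference of obligate nesters minus that of their partners was log2 -0.21 ± 0.21 SE in a fit over all birds. Its SE reflects the spread between birds, whereas nesting differs only from species to species. The SE therefore does not show how far this value varies between species or families. The value of -0.21 is built from the same sex differences by which the gene was chosen. The same holds for any measure of how evenly they run across species, so no test is given for either.

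**Figure D2:**
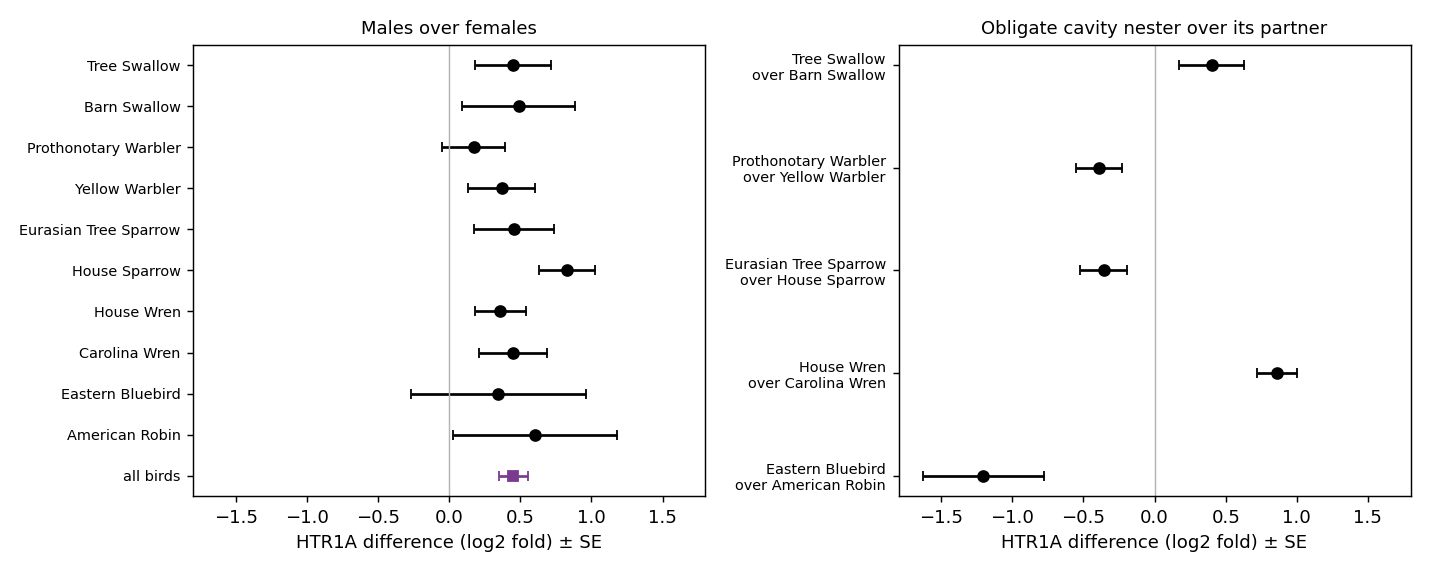
HTR1A differences on the log2 scale with their SE: males over females in each species and over all birds (left), and the obligate cavity nester over its partner in each family (right). Males are higher in 10 of 10 species, by 0.17 to 0.83, while the obligate nester is higher in 2 of 5 families.

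Genes of the Z chromosome were set beside HTR1A. The list was written from general knowledge of bird genomes, and 63 of its 95 genes were in the table. In the fit over all birds 55 of the 63 were higher in males and 1 was lower, with a median difference of log2 0.67 (middle 50% of genes 0.43 to 0.84). Over all genes tested 4.15% were higher and 1.06% lower in males, with a median of -0.02. HTR1A, at 0.45, lay between these quartile values of the Z list, and 46 of the 63 had a larger difference. In 12 Z genes known to keep a W copy the median was 0.40, and 9 were higher in males.

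By species the median male-over-female difference of the Z list lay between log2 0.42 and 0.77, with HTR1A above it in House Sparrow (0.83, list median 0.77) and Carolina Wren (0.45, list median 0.42). In Carolina Wren edgeR called 0 of 10423 genes by sex. At an unadjusted p below 0.05 there were 584, and DESeq2 called 12. Without the libraries labelled female 1 and male 3 edgeR called 250 genes, the Z list median was 0.57 and HTR1A was at 0.59. In Prothonotary Warbler, HTR1A (0.17) was furthest below the list, whose median was 0.74, and 52 of the 58 Z genes tested there had a larger difference.

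**Figure D3:**
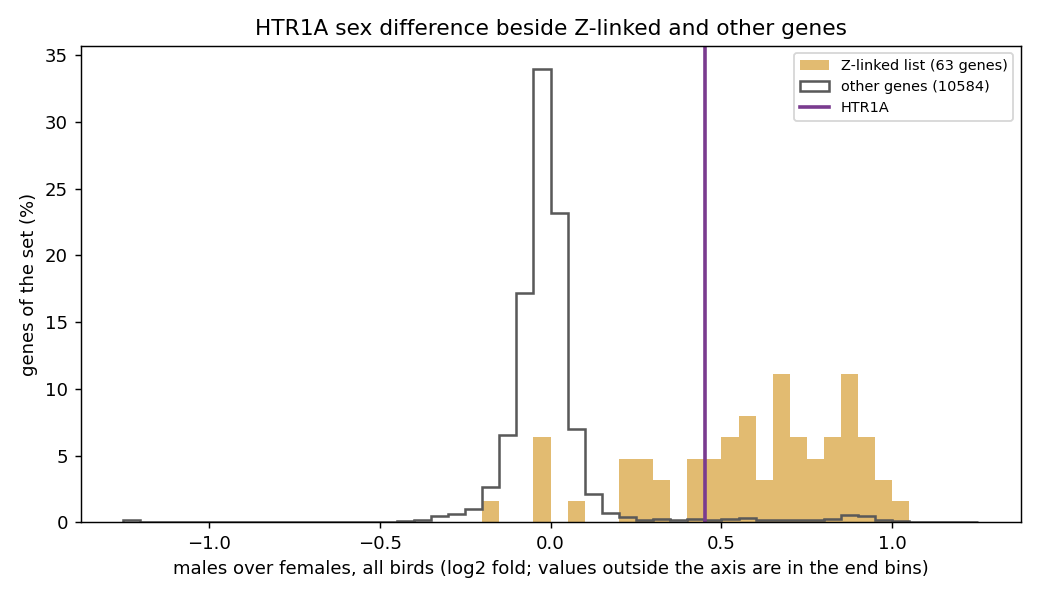
Male-over-female difference of each gene over all birds (log2 fold, horizontal axis) as a share of its set, for the 63 genes of the Z list (filled) and for all other genes (line), with HTR1A marked at 0.45. HTR1A lies among the Z genes, below their median of 0.67. It also lies outside the peak of the other genes near 0, which its choice for a higher level in males fixed. The list is not the whole chromosome, so the other genes may hold Z genes too.

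Between the species of a family, HTR1A went in different directions. House Wrens were higher than Carolina Wrens by log2 0.86 ± 0.14 SE, a 1.82-fold difference, and Tree Swallows higher than Barn Swallows by 0.40 ± 0.23. Eastern Bluebirds were lower than American Robins (log2 -1.20 ± 0.43). Prothonotary Warblers were lower than Yellow Warblers (-0.39 ± 0.16) and Eurasian Tree Sparrows lower than House Sparrows (-0.36 ± 0.17). Of all genes, 54.4% passed the threshold in Hirundinidae, 55.4% in Parulidae, 49% in Passeridae, 56.9% in Troglodytidae and 56.3% in Turdidae. In size, 12.7% of genes differed more than HTR1A between the thrushes, 15.9% between the wrens, and 43.7% to 48.0% in the other 3 families. These ranks are no test either, since the gene was chosen for such differences.

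The 2 sexes gave the same direction in each family, but the gene was chosen from these same values. In males the difference of the obligate nester over its partner was log2 0.81 ± 0.23 SE in wrens, 0.38 ± 0.26 in swallows, -0.49 ± 0.23 in warblers, -0.56 ± 0.24 in sparrows and -1.33 ± 0.83 in thrushes. In females it was 0.91 ± 0.19 in wrens, 0.47 ± 0.40 in swallows, -0.31 ± 0.24 in warblers, -0.15 ± 0.22 in sparrows and -1.08 ± 0.28 in thrushes. The 2 sexes were furthest apart in the sparrows, which was not tested. The thrush difference was -1.18 ± 0.24 without the 2 males at 0.

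Over the 10 species means, with family as a block, HTR1A in obligate nesters stood at log2 -0.09 ± 0.28 SE relative to their partners. The obligate nester was the higher species in 2 of 5 families. The mean difference was -0.40 ± 0.80 over the 3 families whose partner species builds open cups and 0.25 ± 0.86 over the 2 whose partner is facultative (SD between families). In this fit limma called 0 of 10648 genes, and 476 had an unadjusted p below 0.05.

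Among the other serotonin receptors, 9 of the 14 listed were in the table. By sex over all birds edgeR called 5.21% of all genes and 0 of the 9 receptors, too few genes to tell these shares apart. Of the receptors, 0 had an unadjusted p below 0.05, and DESeq2 called 0. Their log2 differences of males over females ran from -0.04 in HTR7 to 0.17 ± 0.12 SE in HTR1D. Between species, the threshold was passed by 4 of 9 in swallows (3 higher, 1 lower), 4 of 8 in warblers (3 higher, 1 lower), 1 of 9 in sparrows (lower), 1 of 8 in wrens (lower) and 1 of 9 in thrushes (higher). Of all genes, 25.8% were higher and 28.5% lower in Hirundinidae, 28.1% and 27.3% in Parulidae, 24.2% and 24.8% in Passeridae, 30.7% and 26.2% in Troglodytidae, and 28.5% and 27.7% in Turdidae.

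HTR1B, an inhibitory receptor found on axon terminals, was higher in Tree Swallows (180 CPM) than in Barn Swallows (138 CPM, log2 0.36 ± 0.12 SE, edgeR adjusted p = 0.0149), where HTR1A was higher as well. It was also higher in Eastern Bluebirds (215 CPM) than in robins (159 CPM; log2 0.44 ± 0.14, adjusted p = 0.00849), the pair in which HTR1A was lower. HTR1D, a related inhibitory receptor, was higher in Prothonotary Warblers, at 18.6 CPM against 12.1 CPM in Yellow Warblers (log2 0.62 ± 0.18, adjusted p = 0.00365). Its log2 values were also positive in the other 4 families, from 0.23 to 0.76, without passing the threshold. HTR1E was higher in Tree Swallows than Barn Swallows (12.0 against 8.39 CPM, log2 0.54 ± 0.19) and in Prothonotary than Yellow Warblers (9.01 against 6.42 CPM, log2 0.50 ± 0.17). HTR1F, the remaining inhibitory member of this class, was called in no family, with log2 values from -0.16 to 0.29.

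HTR2A and HTR2C act through phospholipase C and excite cells. HTR2A was called in no family, at log2 values from -0.19 to 0.34. HTR2C was higher in Tree Swallows than Barn Swallows (68.9 against 52.1 CPM, log2 0.41 ± 0.16 SE, edgeR adjusted p = 0.032) and in Prothonotary than Yellow Warblers (51.9 against 37.6 CPM, log2 0.49 ± 0.13, adjusted p = 0.00155). HTR4 and HTR7 raise cyclic AMP, the opposite of HTR1A. HTR4 was called in no family. HTR7 was lower in House Wrens, at 12.5 CPM against 23.7 CPM in Carolina Wrens (log2 -0.89 ± 0.14, adjusted p = 4.90e-06), the pair in which HTR1A was higher. It was also lower in Prothonotary Warblers, at 10.4 CPM against 16.1 CPM in Yellow Warblers (log2 -0.60 ± 0.14, adjusted p = 0.000497), where HTR1A was lower as well. HTR5A, an inhibitory receptor, had species means of 0.19 to 3.32 CPM. It was tested in 3 families and was lower in Tree Swallows than Barn Swallows (log2 -1.39 ± 0.41) and in Eurasian Tree Sparrows than House Sparrows (-0.87 ± 0.31).

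**Figure D4:**
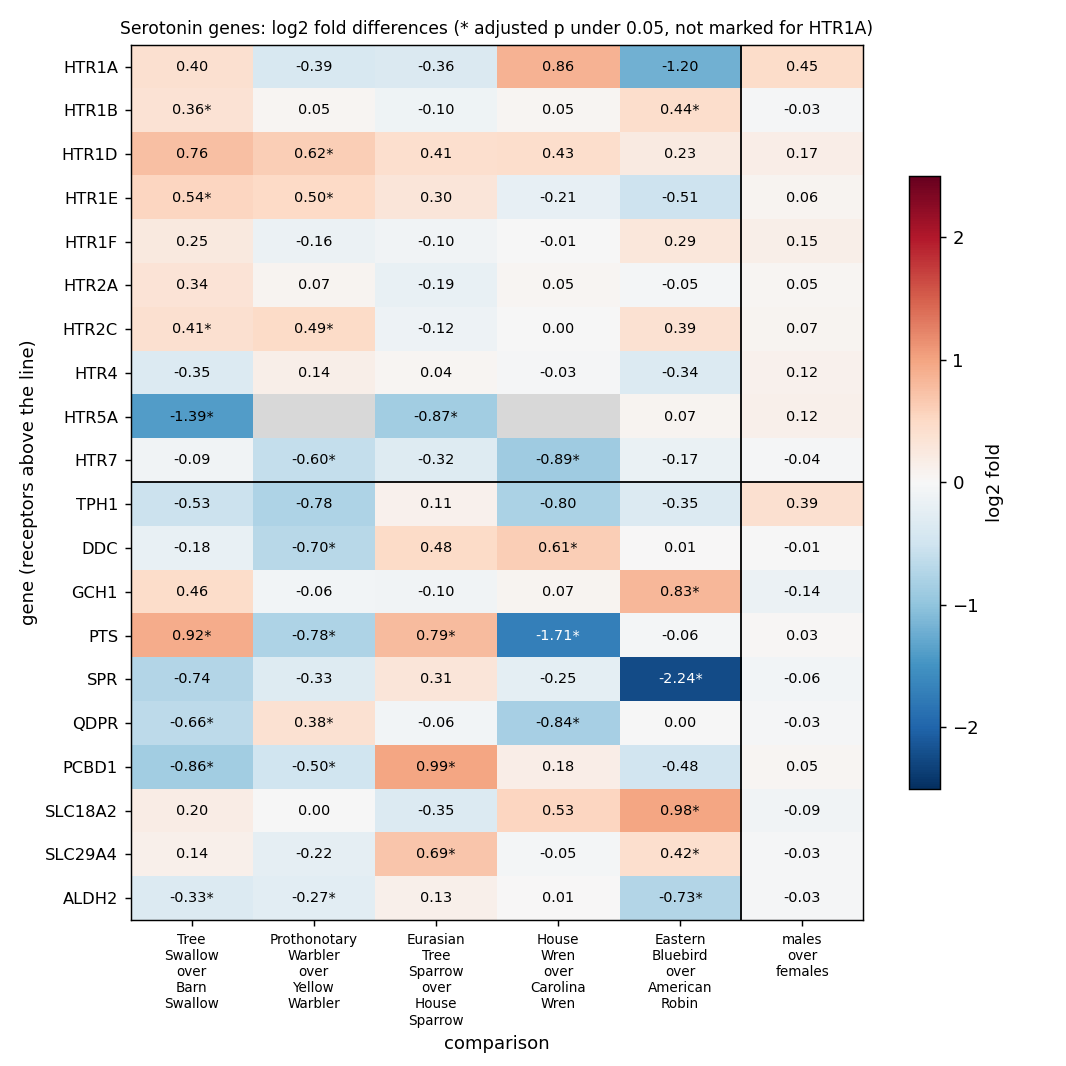
Log2 differences of HTR1A and 19 other serotonin genes (rows) for the obligate nester over its partner in 5 families and for males over females (columns); stars mark an adjusted p below 0.05 and are not given for HTR1A, grey marks genes not tested. No gene has a star in the sex column, where HTR1A is at 0.45 and the next highest, TPH1, at 0.39.

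Of 17 genes of serotonin synthesis, transport and breakdown 10 were in the table. The serotonin transporter SLC6A4, the neuronal hydroxylase TPH2 and the monoamine oxidases were not analysed here. By sex edgeR called 0 of the 10, against 5.21% of all genes. Of the 10, 0 had an unadjusted p below 0.05, and DESeq2 called 0 of them. By family 4, 5, 3, 3 and 5 of 10 were called in swallows, warblers, sparrows, wrens and thrushes. Of all genes 49% to 56.9% were called in a family, and 10 genes are too few to tell these shares apart. Those past the threshold by at least 2-fold were 2 makers of the hydroxylase cofactor tetrahydrobiopterin. PTS, a synthase of that pathway, was lower in House Wrens at 9.45 CPM against 31.6 CPM in Carolina Wrens (log2 -1.71 ± 0.18 SE, edgeR adjusted p = 8.92e-09). SPR, which completes the cofactor, was lower in Eastern Bluebirds, with 1.03 CPM and 4.86 CPM in robins (log2 -2.24 ± 0.50, adjusted p = 0.00038). Over species means limma called 0 of the 19 serotonin genes and 1 had an unadjusted p below 0.05. The sex difference varied with obligate nesting in 0 of the 19 by edgeR (1 at an unadjusted p below 0.05) and 0 by DESeq2. For that comparison edgeR called 0.0563% of all genes. Its calls took birds as the replicates, although nesting differs only from species to species. Each of the 19 was also tested by sex with edgeR within single species, in up to 10 species. These fits gave 2 calls in all, so the 2 are not a share of 19. PCBD1, which recycles the cofactor, was higher in Prothonotary Warbler males than in females (log2 0.69 ± 0.15 SE, adjusted p = 0.0173), where 2.8% of all genes were called, and the other was TPH1.

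TPH1, a tryptophan hydroxylase that makes serotonin in the pineal gland and outside the brain, was the only 1 of the 19 whose sex difference varied between species (edgeR adjusted p = 0.0128; 1.06% of all genes passed). In House Sparrow males its lowest, median and highest levels were 11.5, 19.4 and 83.5 CPM, against 2.34, 5.68 and 7.21 CPM in females. The sexes did not overlap there (log2 2.63 ± 0.51 SE, adjusted p = 0.0101), and 1.84% of genes passed for sex in that species. Carolina Wren males had 2.73, 5.09 and 82.9 CPM and the females 2.11, 4.11 and 6.39 CPM. American Robin males had 0, 3.41 and 14.0 CPM and the females 3.10, 4.87 and 133 CPM. In both of these species, and among Eurasian Tree Sparrow males, a single bird carried the high value, which in Carolina Wren was the library labelled male 3 that went against its label in CHD1W. The call was lost without American Robin female 3 (adjusted p = 0.178).

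Genes that mark serotonin neurons in mammals were set beside HTR1A. The list held 9 genes, 7 in the table, and by species the means of EN1 and LMX1B lay between 0.44 and 4.02 CPM. By sex edgeR called 5.21% of all genes. No gene of the 7 was called by sex in edgeR (1 at an unadjusted p below 0.05) or in DESeq2. All calls by family were lower in the obligate nester, for 3 of 7 in swallows, 2 of 5 in warblers, 4 of 6 in sparrows, 1 of 6 in wrens and 1 of 7 in thrushes. Of all genes, 28.5%, 27.3%, 24.8%, 26.2% and 27.7% were lower in these families. The share of the list was under that of all genes in wrens and thrushes and above it in the other families. With 5 to 7 genes tested per family, these shares are too few to be read as a result about the list. Calls in either direction made up 49% to 56.9% of all genes. The lowest were the midbrain patterning gene EN1 in Tree Swallows (log2 -2.78 ± 0.79 SE) and the neuronal transcription factor POU3F2 in Prothonotary Warblers (-2.73 ± 0.17). EN1 had no read in 17 birds, and averaged 4.02 ± 5.84 CPM in Barn Swallows and 0.44 ± 0.80 CPM in Tree Swallows (SD). The values nearest 0 were those of GATA2, a zinc finger factor, in Eurasian Tree Sparrows (-0.77 ± 0.25) and Prothonotary Warblers (-0.93 ± 0.20). HTR1A was higher in Tree Swallows and lower in Prothonotary Warblers and Eurasian Tree Sparrows.

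The proteins that carry the HTR1A signal inside the cell were set beside it, with 26 of 30 listed genes in the table. By sex edgeR called 0 of the 26, against 5.21% of all genes. Of the 26, 1 had an unadjusted p below 0.05 and DESeq2 called 0, with log2 values from -0.08 to 0.10. By family 9, 12, 8, 18 and 16 of the 26 were called in swallows, warblers, sparrows, wrens and thrushes, which is 34.6%, 46.2%, 30.8%, 69.2% and 61.5%, where 54.4%, 55.4%, 49%, 56.9% and 56.3% of all genes were called. In wrens 10 were higher and 8 lower, and in thrushes 11 were higher and 5 lower. Of all genes, 30.7% were higher and 26.2% lower in wrens, and 28.5% and 27.7% in thrushes. With 26 genes these splits are too few to be read as a result about the list, and those of the other families are not given. The extremes were ADCY5, an adenylyl cyclase of striatal neurons, higher in Eurasian Tree Sparrows (log2 7.46 ± 0.27 SE), and RGS20, which speeds the shut-off of inhibitory G proteins, lower in House Wrens (-3.58 ± 0.21). ADCY5 averaged 1.13 CPM in House Sparrows and 167 CPM over all birds, and RGS20 1.45 CPM in House Wrens and 18.3 CPM over all birds. How well reads of these genes matched the reference in each species was not tested. GRK3, a kinase that desensitises receptors, was higher in Eastern Bluebirds (1.53 ± 0.14), and the inhibitory G protein subunit GNAI2 was lower in Prothonotary Warblers (-1.85 ± 0.06). Of the channel subunits that HTR1A opens, KCNJ3 was lower in Tree Swallows (-0.66 ± 0.21) and higher in House Wrens (0.56 ± 0.24), and KCNJ5 was lower in Tree Swallows (-1.06 ± 0.33) and higher in Eastern Bluebirds (0.77 ± 0.25).

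Of 14 factors reported in mammals to act on the HTR1A promoter, 12 were in the table. By sex edgeR called 0 of the 12 (2 at an unadjusted p below 0.05), against 5.21% of all genes, and DESeq2 called 0 of the 12. By family 5, 4, 7 and 5 were called in swallows, warblers, wrens and thrushes of 12 each, and 4 of 11 in sparrows. These shares, 33.3% to 58.3%, were below or near the 49% to 56.9% of all genes, with too few genes to tell them apart. CC2D1B, a repressor of HTR1A in mammalian cells, was called in all 5 families. It was higher in House Wrens (log2 0.97 ± 0.07 SE) and lower in Tree Swallows (-0.56 ± 0.07), Prothonotary Warblers (-0.82 ± 0.09), Eurasian Tree Sparrows (-0.92 ± 0.07) and Eastern Bluebirds (-0.62 ± 0.10). Its sign was that of HTR1A in 4 of the 5 pairs and the opposite in swallows. These values were picked after they were seen, signs were not matched for the other factors, and no test was made. DEAF1, which binds a promoter element of HTR1A in mammals, was higher in Eastern Bluebirds (1.16 ± 0.14). The glucocorticoid receptor NR3C1 was lower in House Wrens (-1.14 ± 0.09), and REST, a repressor of neuronal genes, was lower in Tree Swallows (-1.14 ± 0.11).

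Among sex steroid genes, aromatase CYP19A1, which makes oestrogen, was higher in males (log2 0.60 ± 0.11 SE, edgeR adjusted p = 4.24e-06) and the oestrogen receptor ESR2 was lower (-0.48 ± 0.10, adjusted p = 0.000176). Between species, ESR1 (1.07 ± 0.22) and ESR2 (0.78 ± 0.19) were higher in Eurasian Tree Sparrows than in House Sparrows, and the steroid reductase SRD5A1 was lower in Eastern Bluebirds than in American Robins (-1.06 ± 0.45).

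Genes of like pattern were looked for across birds, as Pearson correlations of log2 CPM with HTR1A after the mean of each species and sex was taken away, over 9130 genes. The points share library, depth and dissection, and no test was made. Over all birds the 10 highest were NPBWR2 (r = 0.67), a receptor for neuropeptides B and W, BAIAP2L1 (0.67), ECHDC3 (0.64), the kinesin KIF27 (0.61), the ubiquitin-conjugating enzyme UBE2D1 (0.60), the methyltransferase SETD6 (0.58), LRMDA (0.58), SNUPN (0.57), GATA3 (0.56) and IQCG (0.56). The 5 lowest were MAML3 (-0.46), a Notch coactivator, GMEB1 (-0.45), UBE2G1 (-0.44), GLMN (-0.43) and LSM8 (-0.43).

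This order rested on the 2 birds without an HTR1A read. Over the other 119 birds only 1 of the 10, GATA3 (0.38), remained among the 10 highest, BAIAP2L1 was at -0.01 and SETD6 at -0.16. The highest values were then LEF1 (0.47), a Wnt-responsive transcription factor, and NAPEPLD (0.46), an enzyme that makes lipid signals, and the lowest was ZNF143 (-0.45). Among the serotonin, signalling, regulator and steroid genes r ran from -0.31 in YY1 to 0.38 in GATA3. Marker lists were compared by their mean log2 CPM, not by their sums. That of endothelial and mural cells had r = 0.42 with HTR1A over all birds and -0.02 over the 119. For choroid plexus and ependyma the values were 0.23 and -0.12. HTR1A had r = 0.06 with log2 total count.

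**Figure D5:**
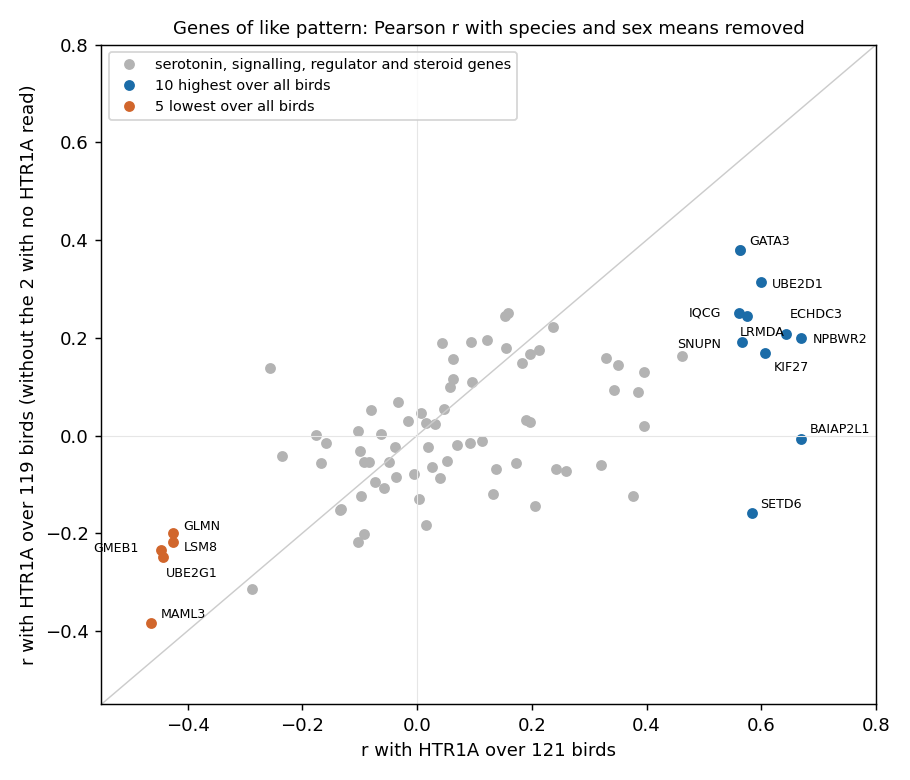
Pearson r of each gene with HTR1A after removal of species and sex means, over all birds (horizontal axis) and over the 119 birds that had an HTR1A read (vertical axis), for the 10 highest genes, the 5 lowest and the listed genes. The 10 highest genes lie at 0.56 or more on the horizontal axis and between -0.16 and 0.38 on the vertical one.

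Across the 10 species means HTR1A ran most alike with ATP2A2 (r = 0.91), the calcium pump of the endoplasmic reticulum, SLC25A51 (0.91), MMD (0.90), WDTC1 (0.89) and FANCI (0.89). It ran most opposite to MTFMT (-0.92), UMPS (-0.89) and GOSR2 (-0.88). These are 10 points from 5 families, so pairs of points share ancestry, and the same genes had r between -0.27 and 0.34 with HTR1A across birds. Of the listed genes CYP19A1 (0.87), GATA2 (0.79) and NFKB1 (0.73) were highest across species, and HTR5A (-0.36) was the lowest of the other receptors.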

How the data were processed

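The authors deposited 1 table of raw counts of reads per gene, with 1 column per bird. The submitters' processing notes list Trimmomatic (0.36) and fastp (0.20.1), the aligner Bowtie2 (2.4.4), SAMtools (1.10), and featureCounts from Subread (2.02z). A stranded mRNA kit was used, per the labels' protocols. The table's title names zebra finch proteins. A build, an annotation and the strand setting were not given in the sources.

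Groups came from the labels. Counts were tested with edgeR 4.0.16 (quasi-likelihood, TMM scaling, filterByExpr by species and sex, R 4.3.3) over all genes, with Benjamini-Hochberg adjustment and a threshold of 0.05. Family fits held sex as a covariate, and sex fits over all birds held species. Species means of log2 CPM (prior count 2) were tested with limma 3.58.1, which left 4 residual degrees of freedom. DESeq2 1.42.0 was an alternative, and figures used matplotlib 3.10.9. Tests of a single difference are two-sided. The edgeR and DESeq2 tests measure the spread between birds, also where sex was fitted with nesting strategy, a property of the species. The limma test measures the spread of species differences between families. The scripts were tested on simulated data.

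HTR1A, the gene lists and the alternatives were chosen with earlier results of these data known. The Z list was written from general knowledge after the table was opened, since no annotation was at hand. Named genes are HTR1A, every measured serotonin receptor, synthesis genes called at 2-fold or more, the 2 highest and 2 lowest calls of each other list, and the genes nearest to and furthest from HTR1A by correlation with a mean of at least 5 CPM. KCNJ3, KCNJ5, PCBD1, the other CC2D1B and TPH1 values, and the 3 listed genes highest across species were picked after their values were seen. One gene of the sex steroid list is not reported here. Tests of how the HTR1A sex difference varied with nesting or species were planned, and their p-values are not given, since the choice of the gene used those values.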

Additional observations from a re-analysis of the deposited data

Results flagged for a closer look

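HTR1A itself gave no bird that stood apart from its group in 20 groups of 6 or 7 birds. This was judged on CPM, not on log2 CPM, and did not single out the 2 birds at 0. TPH1, the tryptophan hydroxylase, drew attention because its sex difference varied between species (edgeR adjusted p = 0.0128) and because 1 bird stood far above the others in 6 of its 20 groups. Chance gives about 1 in 20 for normally distributed values, which need not hold for CPM. As a share of the group's whole range, the gap between the highest bird and the next was 0.960 in Carolina Wren males, 0.881 in Eurasian Tree Sparrow males, 0.683 in Yellow Warbler males, 0.981 in American Robin females, 0.650 in House Wren females and 0.600 in Tree Swallow females. The highest birds were at 82.9, 81.7, 27.9, 133, 13.7 and 28.7 CPM in that order of groups.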

How the results depend on the processing

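Of 213 values recomputed under alternatives over 34 results, 203 were labelled unchanged. For a difference this meant the same direction and a shift smaller than the spread between birds, species or families. For a test it meant the same side of the threshold, and for a count a similar size. That spread was wide, at log2 0.62 for the HTR1A sex difference of 0.45 over all birds. It was 0.70 for the -0.09 over species means, so the label shows little beyond a kept direction. Many of the 213 values were HTR1A differences by sex or between the species of a family, from which the gene was chosen. Their kept direction is therefore no support. The tests of how the HTR1A sex difference varied, counted here too, drew on the same values. HTR1A over species means, at log2 -0.09, lay between -0.30 and 0.14 when each family was left out, and turned positive (0.14) without Turdidae. The HTR1A sex difference over all birds stayed between 0.35 and 0.50. Leaving out each family gave 0.41 to 0.50 for it, log2 -0.23 to -0.16 for its difference between obligate nesters and partners, and 0 serotonin genes over species means. With males alone 5 serotonin genes were called in Hirundinidae (8 with both sexes) and 2 in Turdidae (6 with both sexes). Bird numbers were checked as pairs: in 0 of 15 pairings did every same-numbered pair correlate above 0.1, with median r of -0.18 to 0.16. The check cannot exclude that same-numbered birds belonged together. With the bird number as a replicate block, 1 serotonin gene was called in Turdidae, and HTR1A by sex over all birds was at log2 0.35 ± 0.16 SE. Without the 2 birds with no HTR1A read, species within family took 26.8% and sex 13.3% of the HTR1A variance, and 1 of its 10 most alike genes was shared, while 5 were shared without the 6 libraries that stood apart or went against their labels. TPH1 sex by species ran between adjusted p of 0.0105 and 0.178 (F 3.00 to 4.31) when each of 4 highest birds was left out. It was at 0.240 (F 2.85) without all 4. The alternatives on these 4 and on the 2 birds were chosen after seeing the data. Apart from construction (fewer birds), the cause of these shifts was not tested. At 26.6 HTR1A reads per bird, counting error was 19.5% of a bird's value on average, which limits what single birds can show.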
